A study of Mus musculus with 16 samples.

Results

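Tubulins are the building blocks of microtubules. An alpha-tubulin and a beta-tubulin form a dimer, dimers join end to end into hollow tubes, and several genes of each class encode proteins of closely similar sequence. In hepatocytes, the main cells of the liver, microtubules serve as tracks for the secretion of lipoproteins and plasma proteins and for the traffic of vesicles and lipid droplets. Cells also adjust tubulin mRNA to the amount of free dimer: a nascent tubulin chain with its characteristic first amino acids is recognised by the factor TTC5, and its mRNA is then degraded.

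The 10 genes described here are Tuba1a, Tuba1b, Tuba1c, Tuba4a and Tuba8 of the alpha class and Tubb2a, Tubb2b, Tubb4b, Tubb5 and Tubb6 of the beta class, 10 of the 25803 genes in the joined tables, chosen by exact gene name. They coincide with the alpha- and beta-tubulin genes that passed a filter on low counts. Of 14 such protein-coding genes listed, the other 4 had 75 counts (Tubb4a), 30 (Tubb1), 14 (Tubb3) and 2 (Tuba3a) over all 16 libraries, and Tuba8 (547) and Tubb2b (523) were the lowest inside the filter. Tubb2b had more than 10 counts in all refed LKO libraries but in only some of each other group, and its fold changes carry the widest errors of the 10. All 10 passed the filter, and all 10 are accounted for below.

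The series measured liver mRNA of male mice on a high-fat diet (12 weeks) in 4 groups of 4 libraries. Control mice were sampled in a fasted state (16 h) or a refed state (16 h of fasting, then 6 h with food), and so were mice with Cpt1a knocked out in the liver (LKO). Cpt1a encodes the enzyme that admits long-chain fatty acids to mitochondria for oxidation. The labels give neither the age of the mice nor the strain, nor how the knockout was made, and they do not say that each library is a different animal, so that p-values measure the spread between libraries. Libraries carry the names S40 to S43 in the fasted control group and S44 to S47 in the fasted LKO group. Names S48 to S51 belong to the refed control group, names S52 to S55 to the refed LKO group.

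Library totals ran from 14721601 to 24618230 counts. Values are CPM, the usual read counts scaled to library size, with TMM scaling of the totals, and differences are log2 fold changes with their standard error (SE) from edgeR's quasi-likelihood test on all 14488 genes tested. A gene was called at a Benjamini-Hochberg adjusted p under 0.05. Cpt1a stood between 378 and 556 CPM in the fasted control libraries and between 86.1 and 126 CPM in the fasted LKO libraries. After refeeding it stood between 319 and 619.7 CPM in control and between 39.9 and 75.2 CPM in LKO, so that the groups of each state did not overlap. Hepatocyte markers (8 genes, Alb among them) summed to between 58740 and 86490 CPM in every library. In whole liver, fewer cells of a type and less RNA per cell cannot be told apart.

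The coding sequences show which tubulin counts can be told apart and carry the signal read in tubulin mRNA degradation. The first 24 coding bases of 6 members are given, with the first 4 codons in capitals, from GENCODE M21 transcripts (build GRCm38).
Tuba1b: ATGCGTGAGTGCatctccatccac
Tuba1c: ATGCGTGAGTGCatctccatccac
Tuba4a: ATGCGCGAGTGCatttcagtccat
Tubb2a: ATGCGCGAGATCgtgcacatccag
Tubb4b: ATGAGGGAGATCgtgcacctgcag
Tubb5: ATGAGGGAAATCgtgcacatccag
Tuba1a, Tuba1b and Tuba1c share the same first 4 codons. Tubb2a and Tuba4a differ in that stretch in the fourth codon only. Within the stretch, only the fourth codon separates the alpha genes shown from the beta genes shown.

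The coding ends also differ between members, and this is where alpha-tubulins carry or lack the codon of the final tyrosine that enzymes remove and restore on microtubules. The last 60 coding bases of 2 alpha genes and 2 beta genes are given, with the stop codon in capitals.
Tuba1c: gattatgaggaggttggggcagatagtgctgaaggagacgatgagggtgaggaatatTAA
Tuba4a: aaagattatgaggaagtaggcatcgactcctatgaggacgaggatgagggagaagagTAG
Tubb2a: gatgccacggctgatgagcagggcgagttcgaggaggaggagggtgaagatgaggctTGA
Tubb4b: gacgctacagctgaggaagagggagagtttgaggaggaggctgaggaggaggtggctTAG
The line for Tuba1c ends in the tyrosine codon tat before the stop, and the line for Tuba4a ends in the glutamate codon gag.

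Some members are so alike that short reads from their coding parts cannot be assigned to one gene. Tuba1a and Tuba1b were identical at 98.3% of aligned coding positions, and Tubb2a and Tubb2b at 96.5%. Of all 100-base windows of the coding sequence, 90.9% in Tuba1b and 80.4% in both Tuba1a and Tuba1c occur exactly in a transcript of another gene. That share was 45% in Tubb2a, 46.7% in Tubb2b and 35.3% in Tubb4b, whose windows were shared mostly with the pseudogene Tubb4b-ps1. For Tuba4a, Tuba8, Tubb5 and Tubb6 no window was shared. How the authors' counting treated such reads is not given in the sources used here, so values of the 6 genes with shared windows are uncertain as single genes, and sums over copies are given beside them.

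**Figure D1:**
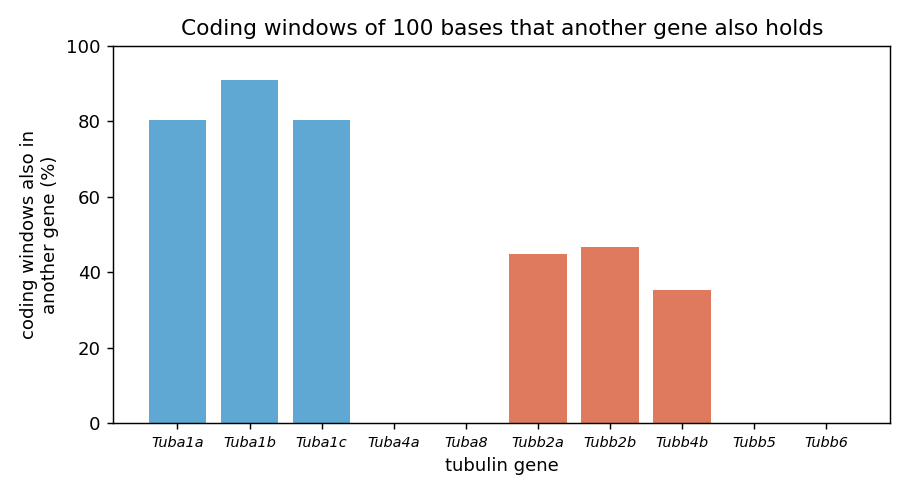
Share of 100-base coding windows (vertical axis, percent) that also occur exactly in a transcript of another gene, for each tubulin gene (horizontal axis; blue, alpha; orange, beta). Tuba1b is highest at 90.9%, and Tuba4a, Tuba8, Tubb5 and Tubb6 are at 0.

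Per gene length, the liver's tubulin mRNA came mainly from Tubb4b, Tubb2a, Tuba4a and Tuba1c. On the scale of CPM per kb of the deposited gene length, the order of levels in fasted control liver was Tubb4b at 41.4 ± 1.96, Tuba4a at 29.4 ± 2.33, Tuba1c at 23.0 ± 0.941, Tubb2a at 17.4 ± 3.82, Tubb5 at 13.1 ± 1.19 and Tuba1b at 10.6 ± 0.933 (SD, n = 4). Tubb6 followed at 4.97 ± 0.943, Tuba1a at 2.21 ± 0.823, Tuba8 at 0.640 ± 0.188 and Tubb2b at 0.155 ± 0.176 CPM per kb. Only 2 pairs of neighbours in that order overlapped between libraries, Tubb2a with Tubb5 and Tubb5 with Tuba1b.

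In the other groups the order differed. In fasted LKO liver Tubb2a had the highest mean, 115 ± 61.1 CPM per kb, ahead of Tubb4b at 72.9 ± 12.2, with libraries of both overlapping. In refed LKO liver Tubb4b (122 ± 9.16 CPM per kb) and Tubb2a (113 ± 23.2) overlapped, and so did Tuba4a (73.7 ± 5.49) and Tuba1c (70.2 ± 3.58). In refed control liver Tubb4b (61.2 to 90.1), Tuba4a (41.3 to 75.7), Tubb2a (37.9 to 82.6) and Tuba1c (44.4 to 63.3) overlapped one another.

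Between genotypes the summed beta-tubulin mRNA differed more than the summed alpha-tubulin mRNA, and between fasted and refed LKO livers the alpha sum differed more. In the fast, alpha genes summed to 65.9 ± 1.94 CPM per kb for control and 81.4 ± 12.7 for LKO (SD, n = 4), and beta genes to 77.0 ± 3.64 and 212 ± 74.7. After refeeding, alpha genes summed to 136 ± 28.5 for control and 183 ± 7.80 for LKO, and beta genes to 166 ± 31.8 and 278 ± 22.7 CPM per kb. In the fasted LKO libraries the ratio of alpha to beta mRNA lay between 0.261 and 0.549, against 0.804 to 0.951 in fasted control and 0.764 to 0.908 in refed control. In refed LKO it lay between 0.562 and 0.708, below every control library. Tubb2a made up 38.6% to 63.6% of the beta sum in fasted LKO and 17.8% to 27.1% in fasted control. These sums are descriptions of levels, with no test.

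**Figure D2:**
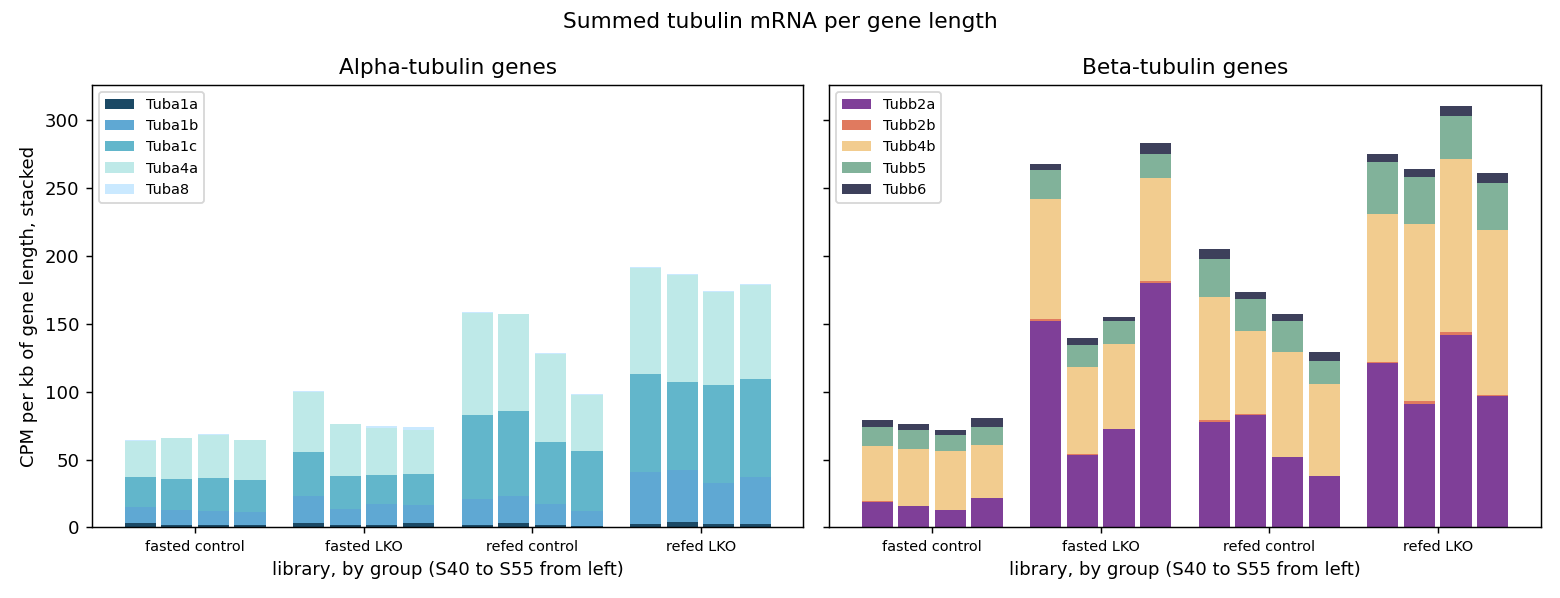
Summed tubulin mRNA in each of the 16 libraries (horizontal axis, grouped), in CPM per kb of gene length (vertical axis, stacked by gene), for alpha genes on the left and beta genes on the right. Beta sums ran from 139 to 284 in fasted LKO, where Tubb2a is the largest block in S44, S46 and S47, and from 72.1 to 80.5 in fasted control.

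In the fasted state, Cpt1a LKO livers held more beta-tubulin mRNA, led by Tubb2a at 6.60-fold. Tubb2a, Tubb4b and Tubb5 rose, and no member fell. The other 7 did not pass the test. The members called were 3 of 10, where 12.2% of all genes tested were called in either direction 5.75% as higher and 6.48% as lower. All 10 had a fold change above 0, with a median log2 fold change of 0.48 beside 0.02 over all genes. In 4 members (Tuba4a, Tubb2a, Tubb4b and Tubb5) every LKO library was above every control library, which 8.3% of all genes showed.

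Tubb2a (chr13:34258257-34261990, minus strand, mm39, coding in 4 exons) encodes a beta-tubulin that is also abundant in brain. Its levels in S40 to S43 (fasted control) were 30.2, 25.8, 20.7 and 35.1 CPM. Those in S44 to S47 (fasted LKO) were 245, 86.6, 117 and 290.3 CPM. Every LKO library was above every control library, and S44 and S47 were more than 2 times as high as S45 and S46. The difference was 2.72 on the log2 scale (SE 0.35, edgeR adjusted p = 2.75e-04), and it remained called when any single library was left out, between 2.42 and 2.95. Summed with its near-identical copy Tubb2b, the difference was again 2.72 (SE 0.35, edgeR adjusted p = 2.95e-04).

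Among the fasted LKO libraries, summed markers of bile duct cells and of stellate cells and fibroblasts were also highest in S44 and S47. The 8 cholangiocyte markers (bile duct cells) summed to 102 and 96.5 CPM in S44 and S47 and to 63.5 and 53.9 CPM in S45 and S46, against 56.6 to 86.2 CPM in fasted control. Markers of stellate cells and fibroblasts (10 genes) summed to 318 and 322 CPM in S44 and S47 and to 199.6 and 216 CPM in S45 and S46. Within fasted control, S43 and S40 had the highest stellate sums (350.2 and 264.7 CPM) and also the highest Tubb2a (35.1 and 30.2 CPM). S41 and S42 had stellate sums of 172.2 and 188.3 CPM and Tubb2a at 25.8 and 20.7 CPM. In S45 and S46 neither the cholangiocyte nor the stellate sum exceeded that of the highest fasted control library. Their Tubb2a, 86.6 and 117 CPM, was above all 4 fasted control libraries. The part of either list in the Tubb2a values was not tested. Of the cholangiocyte markers, Cftr was at 0 in 11 of 16 libraries. No gene of that list passed the edgeR test between fasted genotypes (0 of 6 tested, 1 at an unadjusted p under 0.05), where 12.2% of all genes passed. Of the stellate and fibroblast list Dcn rose, by 0.36 on the log2 scale (SE 0.11, edgeR adjusted p = 0.0413).

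The adipocyte list of 6 genes summed to between 172 and 409 CPM in fasted LKO and between 66.9 and 154.5 CPM in fasted control. Cidec, a lipid droplet protein also made by fat-laden hepatocytes, rose by 2.20 on the log2 scale (SE 0.50, edgeR adjusted p = 0.0098). It made up most of the fasted LKO sums, at 151 to 354 CPM, and stood at 36.8 to 81.7 CPM in fasted control. Cfd, an adipocyte serine protease, fell in the same comparison (−3.45, SE 0.88, edgeR adjusted p = 0.0182), from a mean of 34.4 CPM in fasted control to 3.24 CPM in fasted LKO. Adipoq was at 0 in 11 and Lep in 15 of 16 libraries. Hepatocyte markers summed to 58740 to 67290 CPM in fasted LKO and 70250 to 77790 CPM in fasted control. Of these 8 genes 4 fell (Ttr, Fgb, Asgr1 and Serpina1c), where 6.48% of all genes fell. The part of these lists in the tubulin values was not tested.

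Tubb4b (chr2:25112172-25114714, minus strand, mm39) encodes a beta-tubulin made in most tissues. It stood at 85.8, 87.7, 91.2 and 81.4 CPM in fasted control and at 185, 134, 130.1 and 159 CPM in fasted LKO. The groups did not overlap, and the fasted control libraries lay close together. The difference was 0.81 on the log2 scale (SE 0.12, edgeR adjusted p = 7.97e-04). With the pseudogene Tubb4b-ps1 added it was 0.82 (SE 0.12, edgeR adjusted p = 7.86e-04).

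Tubb5 (chr17:36144813-36149198, minus strand, mm39) encodes a beta-tubulin of dividing and resting cells alike and shares no coding window with another gene. It stood at 46.8, 45.5, 37.9 and 44.5 CPM in fasted control. In fasted LKO it stood at 70.0, 54.9, 57.7 and 58.2 CPM, all above the control libraries. The difference was 0.46 on the log2 scale (SE 0.13, edgeR adjusted p = 0.0301), and the call was lost without S41, S42, S43, S44 or S46, with edgeR adjusted p up to 0.1047.

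Among the alpha genes none passed in the fasted state. Tuba1b differed by 0.50 on the log2 scale (SE 0.18, edgeR adjusted p = 0.0748) and Tuba4a by 0.34 (SE 0.15, edgeR adjusted p = 0.1491). In the authors' deposited table Tuba1b has an adjusted p of 0.042 for the same comparison. Tuba1c differed by 0.14 (95% interval −0.14 to 0.41, edgeR adjusted p = 0.5495), and the sum of Tuba1a, Tuba1b and Tuba1c by 0.25 (SE 0.13, edgeR adjusted p = 0.2574).

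**Figure D3:**
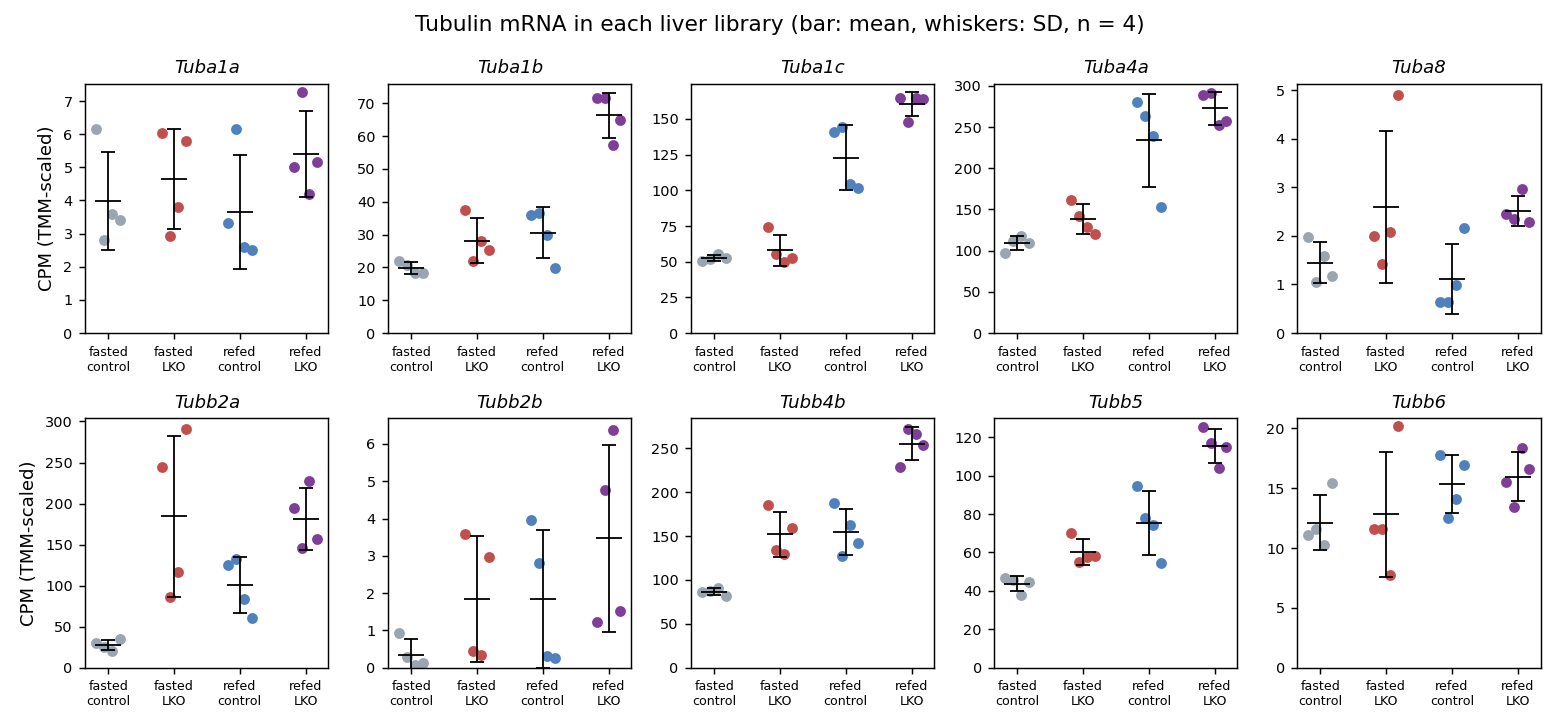
Level of each tubulin gene (vertical axes, CPM, each from 0) in the 16 libraries (points) of the 4 groups, with the mean (bar) and SD (whiskers, n = 4). Tubb2a ranges from 86.6 to 290.3 CPM in fasted LKO and from 20.7 to 35.1 CPM in fasted control, and Tuba1b in refed LKO (57.2 to 71.7 CPM) lies above all other libraries.

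In the refed state, LKO livers held more Tuba1b, Tubb4b and Tubb5 mRNA than control livers, and no member fell. These 3 of 10 were called, where 3.63% of all genes were called in either direction 2.28% as higher and 1.35% as lower. All 10 fold changes were above 0, with a median log2 fold change of 0.67 beside −0.01 over all genes. In 6 members (Tuba1b, Tuba1c, Tuba8, Tubb2a, Tubb4b and Tubb5) every refed LKO library was above every refed control library, which 6.7% of all genes showed.

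Tuba1b (chr15:98829306-98832446, minus strand, mm39) encodes an alpha-tubulin found in most cells. It stood at 36.0, 36.4, 30.0 and 19.8 CPM in the refed control libraries S48 to S51. In the refed LKO libraries S52 to S55 it stood at 71.7, 71.6, 57.2 and 64.8 CPM. The lowest LKO library was above the highest control library, and S51 was the lowest of the control libraries. The difference was 1.12 on the log2 scale (SE 0.17, edgeR adjusted p = 0.0027). Summed with Tuba1a and Tuba1c it was 0.56 (SE 0.13, edgeR adjusted p = 0.0288).

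Tubb4b stood at 188, 128, 162 and 142 CPM in refed control and at 229, 272, 266 and 254 CPM in refed LKO. The difference was 0.72 on the log2 scale (SE 0.12, edgeR adjusted p = 0.0046). Tubb5 stood at 94.8, 78.0, 74.1 and 54.6 CPM in refed control and at 125, 117, 104 and 115 CPM in refed LKO. The groups did not overlap in either gene, and S48 was the highest control library in both. The Tubb5 difference was 0.61 on the log2 scale (SE 0.13, edgeR adjusted p = 0.0171). It was not called when only the 8 refed libraries were fitted (edgeR adjusted p = 0.0517).

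Tubb2a stood at 125, 133, 83.3 and 61.0 CPM in refed control and at 195, 146, 228 and 156 CPM in refed LKO. The groups did not overlap, but the difference of 0.85 on the log2 scale (SE 0.33, edgeR adjusted p = 0.1657) did not pass. The authors' deposited table gives Tubb2a an adjusted p of 0.00875 for this comparison. Tuba8, a low-level alpha-tubulin known from muscle and testis, stood at 0.639, 0.637, 0.995 and 2.17 CPM in refed control and at 2.46, 2.36, 2.97 and 2.30 CPM in refed LKO. Its difference of 1.20 (SE 0.41) did not pass (edgeR adjusted p = 0.1143), and the authors' deposited table gives 0.0308. Tuba1c differed by 0.38 (SE 0.13, edgeR adjusted p = 0.1085) and Tuba4a by 0.22 (95% interval −0.09 to 0.53, edgeR adjusted p = 0.4561).

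Some proliferation markers also differed in the refed LKO libraries. The 19 genes summed to 80.8, 31.8, 48.6 and 84.7 CPM in S52 to S55 and to between 21.2 and 36.8 CPM in refed control. Ccnd1, which was not called, gave 40.8, 15.8, 31.8 and 59.1 CPM of the sums in S52 to S55. Its value in S53 was below that in the refed control library S51 (21.45 CPM). Of 16 genes tested, 14 had a fold change above 0. Ccnb2 was lower in refed LKO (mean 0.371 CPM) than in refed control (mean 0.653 CPM). Of the 16, 2 rose, where 2.28% of all genes rose. They were Top2a (2.17 on the log2 scale, SE 0.51, edgeR adjusted p = 0.0294) and Cdk1 (1.93, SE 0.50, edgeR adjusted p = 0.0426). Top2a stood at 1.24 to 5.935 CPM in refed LKO and at 0.319 to 1.06 CPM in refed control. Cdk1 stood at 6.04, 1.64, 0.989 and 2.56 CPM in S52 to S55. Its value in S54 was below that in the refed control library S51 (1.15 CPM). The part of these genes in the tubulin values was not tested.

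Refed control livers held more mRNA of the 6 most abundant tubulins than fasted control livers. Tuba1b, Tuba1c, Tuba4a, Tubb2a, Tubb4b and Tubb5 rose and no member fell, 6 of 10 called where 15.4% of all genes were called, 7.79% as higher and 7.65% as lower. Of the 10, 8 had a fold change above 0, with a median of 0.81 on the log2 scale beside 0.01 over all genes. In 5 members the groups did not overlap, which 10.4% of all genes showed. Refed control libraries also served as the comparison for refed LKO, and fasted control libraries as the one for fasted LKO, so the comparisons share libraries.

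Tuba4a (chr1:75190872-75196509, minus strand, mm39), whose coding end above lacks the final tyrosine codon, had the highest CPM of the 10 genes over all libraries. It stood at 97.1, 112, 118 and 109 CPM in fasted control. After refeeding it stood at 280.2, 263, 239 and 153 CPM. Every refed library was above every fasted one, and S51 was again the lowest refed control library. The difference was 1.10 on the log2 scale (SE 0.15, edgeR adjusted p = 4.42e-04).

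Tuba1c (chr15:98927772-98935991, plus strand, mm39), an alpha-tubulin of many tissues, stood at 50.5, 51.9, 55.6 and 52.6 CPM in fasted control and at 141, 145, 105 and 102 CPM in refed control. It differed by 1.22 on the log2 scale (SE 0.13, edgeR adjusted p = 1.63e-04), and the sum with Tuba1a and Tuba1b by 1.04 (SE 0.13, edgeR adjusted p = 3.66e-04). Tubb2a, with the control values given above, differed by 1.85 (SE 0.34, edgeR adjusted p = 0.0026). Its refed control libraries reached at most 133 CPM, and its fasted LKO libraries reached 290.3 CPM. Tubb4b differed by 0.84 (SE 0.12, edgeR adjusted p = 7.20e-04), Tubb5 by 0.79 (SE 0.13, edgeR adjusted p = 0.0015) and Tuba1b by 0.62 (SE 0.18, edgeR adjusted p = 0.0265). The Tuba1b call was lost without S42, S43, S48, S49 or S50, with edgeR adjusted p up to 0.0822, and its groups overlapped.

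Refed LKO livers held more mRNA of 3 alpha-tubulins and of Tubb4b and Tubb5 than fasted LKO livers, while Tubb2a, which was high in the fasted LKO livers, was not called. Tuba1b, Tuba1c, Tuba4a, Tubb4b and Tubb5 rose and no member fell, 5 of 10 called where 18.1% of all genes were called, 9.28% as higher and 8.78% as lower. In these 5 genes the groups did not overlap, which 10.6% of all genes showed. The median over the 10 was 0.82 on the log2 scale beside −0.02 over all genes.

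Tuba1c stood at 74.0, 55.6, 49.7 and 52.3 CPM in fasted LKO and at 165, 148, 165 and 164 CPM in refed LKO. The difference was 1.47 on the log2 scale (SE 0.13, edgeR adjusted p = 1.10e-05), and 1.36 (SE 0.14, edgeR adjusted p = 2.11e-05) for the sum with Tuba1a and Tuba1b. Tuba1b stood at 37.5, 21.8, 27.9 and 25.4 CPM in fasted LKO and differed by 1.23 (SE 0.18, edgeR adjusted p = 2.37e-04). In both genes S44 was the highest fasted LKO library, and it was still below every refed LKO library.

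Tuba4a stood at 162, 142, 129 and 119.7 CPM in fasted LKO and at 289, 292, 253 and 257 CPM in refed LKO. The difference was 0.98 (SE 0.15, edgeR adjusted p = 3.84e-04). Tubb5 differed by 0.94 (SE 0.13, edgeR adjusted p = 2.15e-04) and Tubb4b by 0.75 (SE 0.12, edgeR adjusted p = 6.92e-04). Tubb2a differed by −0.02 (95% interval −0.71 to 0.66, edgeR adjusted p = 0.9697), an interval that holds both a fall and a rise.

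The difference between the 2 genotypes' responses to refeeding was tested directly as the interaction. No member passed (0 of 10 called, where 0.538% of all genes were called, 0.311% as higher and 0.228% as lower), and 2 of 10, Tubb2a and Tuba1b, had an unadjusted p under 0.05 in edgeR. For Tubb2a the log2 difference was −1.87 (SE 0.47, edgeR adjusted p = 0.0693, unadjusted p = 9.36e-04). DESeq2 called Tubb2a, with an adjusted p of 0.0143 and a log2 difference of −1.86, and edgeR called it without S45 (adjusted p = 0.0265). For Tuba1b the log2 difference was 0.61 (SE 0.25, edgeR adjusted p = 0.2203), on the other side of 0 from Tubb2a. For Tubb4b it was −0.09 (95% interval −0.46 to 0.27, edgeR adjusted p = 0.8270).

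**Figure D4:**
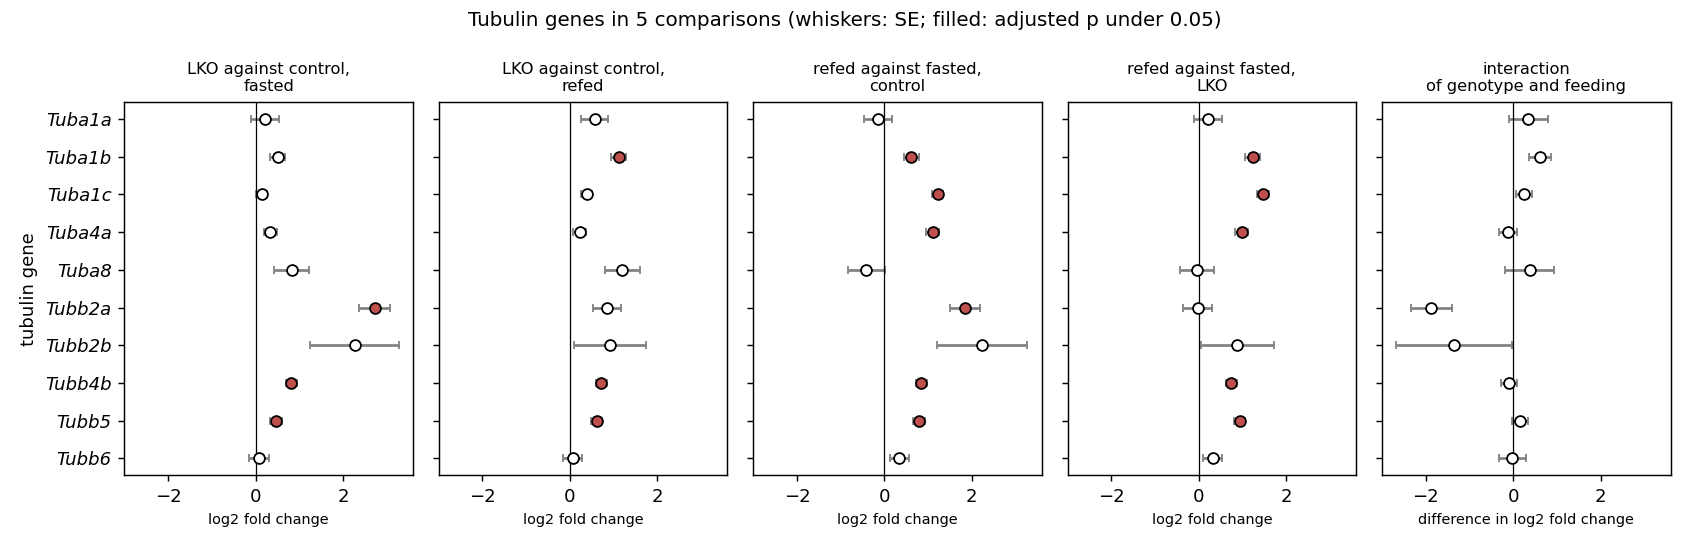
Log2 fold change of each tubulin gene (vertical axis) in the 5 comparisons (panels; horizontal axes, log2 scale), with SE as whiskers and filled points where the edgeR adjusted p was under 0.05. Tubb2a is at 2.72 in the fasted genotype comparison and at −0.02 in the refeeding comparison of LKO livers, and no point is filled in the interaction.

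Tuba1a, Tuba8, Tubb2b and Tubb6 were called in none of the 5 comparisons with all libraries. Without S47, Tubb6 was called between refed and fasted LKO (0.63, edgeR adjusted p = 0.0242), and without S51, Tuba8 was called between refed genotypes (1.69, edgeR adjusted p = 0.0293). Tuba1a, the alpha-tubulin best known from developing neurons, ranged from 2.51 to 7.26 CPM over the 16 libraries. Tubb6, a beta-tubulin best known from regenerating muscle, ranged from 7.79 to 20.2 CPM, both extremes in fasted LKO, and its genotype differences were 0.08 (95% interval −0.39 to 0.54) in the fast and 0.06 (95% interval −0.39 to 0.52) after refeeding. Tubb2b, the near-identical neighbour of Tubb2a known from brain, ranged from 0.0632 to 6.37 CPM.

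The 2 copies on chromosome 13 varied together within groups. Tubb2b stood at 3.59 and 2.98 CPM in S44 and S47, the 2 fasted LKO libraries with the highest Tubb2a, and at 0.453 and 0.336 CPM in S45 and S46. Across libraries after subtraction of group means, Tubb2a and Tubb2b correlated at r = 0.75 (log2 CPM, 16 libraries), a value that reads assigned to either copy also share. Tubb2b's fasted genotype difference of 2.27 (SE 1.02) did not pass (edgeR adjusted p = 0.1653).

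Members differed in how alike they were across the 16 libraries, which share the 4 groups, so these correlations are descriptions. The highest were Tuba1b with Tubb5 and Tuba1c with Tuba4a, both r = 0.96 in log2 CPM. The lowest was Tuba4a with Tuba8 at r = −0.14. After subtraction of group means, Tuba1b with Tubb5 stood at r = 0.89.

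Of 8872 other genes of at least 5 CPM, those most like the mean of the 10 tubulins were Ran and Lacc1 (both r = 0.90), then Ywhah, Dynll1 and Srsf3 (all r = 0.89). Ran is the small GTPase of nuclear transport and spindle assembly, and Dynll1 is a light chain of the dynein motor. For Tuba4a, the tubulin with the highest CPM, the most alike included Cacybp, Gtf3c6, Prelid3b and Mrps22 (all r = 0.94, over 16 libraries). Cacybp encodes a partner of ubiquitin ligases and Mrps22 a protein of the mitochondrial ribosome.

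The promoters of the genes that moved most and most often are shown because several members moved together. Matches to 5 motifs on either strand are in capitals. They are the CCAAT box, the GC box GGGCGG, the TATA box TATAAA, the E-box CACGTG and the heat shock element core GAANNTTC. No matches overlapped in the promoters of members. The 250 bases before the annotated start are from RefSeq on GRCm38.p6, at chr13:34078009-34078258 for Tubb2a, chr2:25224703-25224952 for Tubb4b and chr17:35838302-35838551 for Tubb5, all on the minus strand.
Tubb2a: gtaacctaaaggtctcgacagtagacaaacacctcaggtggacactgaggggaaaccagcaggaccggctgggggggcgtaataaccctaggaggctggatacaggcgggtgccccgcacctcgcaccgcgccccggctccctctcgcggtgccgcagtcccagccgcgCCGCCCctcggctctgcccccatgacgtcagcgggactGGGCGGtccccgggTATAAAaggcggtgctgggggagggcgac
Tubb4b: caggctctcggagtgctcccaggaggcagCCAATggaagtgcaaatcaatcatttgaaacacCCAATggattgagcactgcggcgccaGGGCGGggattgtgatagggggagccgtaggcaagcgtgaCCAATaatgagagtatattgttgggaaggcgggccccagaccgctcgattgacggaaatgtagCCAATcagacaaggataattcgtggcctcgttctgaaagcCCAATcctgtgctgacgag
Tubb5: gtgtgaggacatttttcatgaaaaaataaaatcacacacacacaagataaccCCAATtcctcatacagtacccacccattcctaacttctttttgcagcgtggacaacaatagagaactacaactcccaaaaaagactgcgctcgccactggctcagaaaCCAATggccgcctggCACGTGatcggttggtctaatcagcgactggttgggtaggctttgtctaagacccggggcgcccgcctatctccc
A promoter was found for 8 of 10 members. CCAAT was found in 4 of these 8 and in 33.8% of all 32851 promoters, with 5 copies in Tubb4b and 2 in Tubb5. GGGCGG was found in 5 of 8 (32.7% of all promoters), TATAAA only in Tubb2a (12.4% of all) and CACGTG in Tuba8 and Tubb5 (6.02% of all). GAANNTTC was found in 0 of 8 and in 6.69% of all promoters.

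Other tubulins include gamma-tubulin, which nucleates microtubules, and the delta and epsilon forms of centrioles. Of 10 listed genes 3 were tested. Tubg1 stood at 33.8, 37.2, 32.3 and 31.8 CPM in fasted LKO and at 66.1, 61.6, 55.6 and 51.3 CPM in refed LKO, without overlap, and rose by 0.80 on the log2 scale (SE 0.11, edgeR adjusted p = 1.58e-04). Tubd1 rose on refeeding by 0.89 in control (edgeR adjusted p = 0.0057) and by 1.09 in LKO (edgeR adjusted p = 8.57e-04), and Tube1 by 1.37 in LKO (edgeR adjusted p = 0.0178). None of the 3 was called between genotypes, where 12.2% of all genes were called in the fast and 3.63% after refeeding. Tubg1 was lower in every fasted LKO library than in fasted control (39.6 to 45.15 CPM), by −0.33 (SE 0.11, edgeR adjusted p = 0.0578). Tube1 was higher in every refed LKO library than in refed control, by 1.09 (SE 0.37, edgeR adjusted p = 0.1087).

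New tubulin chains are folded by the CCT chaperonin with prefoldin and are then paired by tubulin cofactors. All 21 listed genes were tested. In the fasted genotype comparison 4 rose (Cct3, Cct6a, Cct8 and the cofactor Tbce) and 0 fell, where 5.75% of all genes rose. The list's median was 0.16 on the log2 scale beside 0.02 over all genes. Cct3 stood at 80.0, 89.0, 89.4 and 66.7 CPM in fasted control and at 128, 100.2, 137 and 92.6 CPM in fasted LKO, a difference of 0.50 (SE 0.12, edgeR adjusted p = 0.0134). In the refed genotype comparison 0 of 21 were called by edgeR, where 3.63% of all genes were called, and 6 had an unadjusted p under 0.05. Fold changes above 0 numbered 17 of 21 there and 16 of 21 in the fast. The refed median was 0.12 on the log2 scale beside −0.01 over all genes. On refeeding 7 rose in control (Cct6a, Cct3, Cct8 and Vbp1 among them, by 0.39 to 0.52) and 0 fell, where 7.79% of all genes rose. In LKO 4 rose (Vbp1, Tbcb, Cct8 and Pfdn4), where 9.28% of all genes rose, and Arl2, a GTPase that works with the cofactors, fell by 0.85 (SE 0.16, edgeR adjusted p = 0.0018).

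Of 6 genes that act in the degradation of tubulin mRNA, Ttc5 among them, 1 was called, in the fasted genotype comparison. In that comparison 12.2% of all genes were called. Cnot8, a subunit of the CCR4-NOT deadenylase, was lower in fasted LKO (log2 difference −0.28, SE 0.08, edgeR adjusted p = 0.0298). Ttc5 differed by −0.18 between genotypes in the fast and by 0.13 after refeeding. Of the enzymes that modify tubulin, 13 of 15 were tested. Between genotypes 1 was called in the fast and 1 after refeeding, where 12.2% and 3.63% of all genes were called. On refeeding 2 were called in control and 3 in LKO, where 15.4% and 18.1% of all genes were called. Sirt2, a deacetylase, fell in fasted LKO (−0.34, SE 0.08, edgeR adjusted p = 0.0152). Atat1, the alpha-tubulin acetyltransferase, was lower in refed LKO than in refed control (−0.52, SE 0.13, edgeR adjusted p = 0.0348). On refeeding of control livers Ttl, the ligase that restores the final tyrosine, rose by 0.49 (SE 0.14, edgeR adjusted p = 0.0229), and Svbp, the partner of the enzymes that remove it, fell (−0.55, SE 0.11, edgeR adjusted p = 0.0036). In LKO livers Ttll12 rose and Atat1 and Agbl5 fell on refeeding.

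Among 22 tested genes of microtubule dynamics and severing, 3 rose in fasted LKO and 0 fell, a share of calls near the 12.2% of all genes. Map7, which recruits kinesin to microtubules, stood at 20.6, 25.1, 23.0 and 20.6 CPM in fasted control and at 39.7, 30.4, 36.4 and 32.1 CPM in fasted LKO, without overlap, and rose by 0.63 (SE 0.12, edgeR adjusted p = 0.0024). It was the single gene of that list called in the interaction, at −0.79 (SE 0.16, edgeR adjusted p = 0.0426). Mapre3, a plus-end binding protein, rose by 0.71 (SE 0.13, edgeR adjusted p = 0.0030), and the severing subunit Katna1 by 0.32 (SE 0.09, edgeR adjusted p = 0.0338). After refeeding, Katna1 and Fignl1 were higher in LKO and 0 were lower, where 3.63% of all genes were called. Fignl1 stood at 0.204 to 0.557 CPM in refed control and at 1.37 to 4.91 CPM in refed LKO, a difference of 2.89 (SE 0.44, edgeR adjusted p = 0.0021). On refeeding 3 rose and 0 fell in control (Mapre2, Spast and Mapre1), where 15.4% of all genes were called. In LKO 3 rose and 3 fell, with Map7 and Mapre3 among those that fell, where 18.1% of all genes were called.

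Of 23 motor genes, 4 rose and 1 fell in fasted LKO, led by Kif1b, a kinesin of organelle transport (0.56, SE 0.12, edgeR adjusted p = 0.0074), and 1 rose in refed LKO (Dynlrb1), where 12.2% and 3.63% of all genes were called. On refeeding 4 rose and 3 fell in control, and 3 rose and 3 fell in LKO, where 15.4% and 18.1% of all genes were called. Dynll1 rose in both, by 0.61 (SE 0.18, edgeR adjusted p = 0.0281) and 0.83 (SE 0.17, edgeR adjusted p = 0.0033). Of 11 genes of microtubule nucleation, Mzt2 was called once, lower in refed control than in fasted control (−0.44, SE 0.12, edgeR adjusted p = 0.0240). In that comparison 15.4% of all genes were called.

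The actin genes give a comparison within the cytoskeleton. Actb stood at 467, 531, 452 and 492 CPM in fasted control and at 964, 844, 856 and 720.4 CPM in refed control, without overlap. It rose by 0.80 (SE 0.13, edgeR adjusted p = 0.0013), and in LKO livers by 0.81 (SE 0.13, edgeR adjusted p = 5.38e-04). Between genotypes it differed by 0.09 in the fast and by 0.10 after refeeding, and was called in neither. Actg1 rose on refeeding in LKO by 1.17 (SE 0.26, edgeR adjusted p = 0.0056), and in control it differed by 0.65 and was not called. Of 21 actin cytoskeleton genes tested, 2 rose and 0 fell in fasted LKO, where 12.2% of all genes were called. Of these 2, Tpm4 rose by 1.04 (SE 0.21, edgeR adjusted p = 0.0047). In refed LKO 0 were called by edgeR, where 3.63% of all genes were called, and 3 had an unadjusted p under 0.05. Intermediate filament genes (10) had 0 calls in edgeR in 4 of the 5 comparisons, with 1 or 2 genes at an unadjusted p under 0.05 in each. Over all genes, 0.538% to 15.4% were called in those 4 comparisons. On refeeding of LKO livers Lmnb2 rose and Krt19 and Krt23 fell, 3 of 10 called where 18.1% of all genes were called. For Krt19, S44 was the single fasted LKO library above the refed LKO libraries. Its values in S45 to S47 were 1.121 to 1.245 CPM, within the refed LKO range of 0.850 to 2.225 CPM.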

How the data were processed

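Liver mRNA was sequenced in 16 libraries, made with poly-A selection, random hexamers and dUTP per the labels' protocols. Reads were aligned with HISAT2 2.0.5 to mm39 per the submitters' processing notes. The counting tool, annotation and use of strand are not given in the sources used here. Raw gene-level read counts were deposited by the authors in 4 tables, one for each pair of groups compared, with their log2 fold changes, adjusted p-values and gene lengths. Columns S40 to S55 match no sample title, and the group heading shared by the 2 tables that hold a library gave its group.

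The tables were joined on gene identifier (25803 genes, 0 counts differing between tables). A gene absent from both tables of a library was set to 0 there (3148 genes). Another 64 per-library columns stayed unused. Counts were fitted in R 4.3.3 with edgeR 4.0.16 (filterByExpr, 14488 genes, TMM factors 0.941 to 1.07, glmQLFit on the 4 groups with all 16 libraries, glmQLFTest) and Benjamini-Hochberg adjustment over all genes. Intervals of 95% use the fit's degrees of freedom. Alternatives used DESeq2 1.42.0, limma 3.58.1 (voom), other scalings, filters and thresholds, only the groups compared, each library left out, and, chosen after seeing the data, summed near-identical copies.

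The members and lists were chosen with earlier results of these data known, so adjusted p-values are what the fit over all genes gives each gene, not independent support. Named genes are the 10 tubulins, Cpt1a, other tubulins tested, up to 4 called genes per list and comparison by smallest adjusted p, Actb, Actg1, and the 5 most alike by Pearson's r to the tubulin mean and to the tubulin of highest CPM. Some items that this rule picks are not reported here. Ttc5 and the other genes named for a value were named after values were seen. Red cell, macrophage, lymphocyte, neutrophil and endothelial markers were also tabulated.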

Additional observations from a re-analysis of the deposited data

Results flagged for a closer look

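In 40 sets of 4 libraries (10 tubulins in 4 groups), 1 held a library far from the others, where chance flags about 1 in 20 sets. Tuba1c in refed LKO stood at 148.2 CPM in S53 and between 163.8 and 165 CPM in the other libraries of that group.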

How the results depend on the processing

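Counts of tubulins called were recomputed with DESeq2's size factors or upper quartile scaling in edgeR, no low-count filter, a minimum of 5 CPM, DESeq2 and limma-voom. Each called the same members in the 4 group comparisons. With only the groups compared in the fit, 2 in place of 3 were called in the refed genotype comparison. At an adjusted p under 0.01 the counts in the 4 group comparisons were 2, 2, 5 and 5. In the interaction DESeq2 called 1 (Tubb2a). With one library left out, 2 to 5 tubulins were called in the fasted genotype comparison (5 without S51, adding Tuba1b and Tuba4a), 3 to 4 in the refed one, 5 to 6 on refeeding in either genotype, and 0 to 1 in the interaction (1 without S45). No paired analysis was possible because the count columns carry no replicate numbers.

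Signs turned only for fold changes not called. With limma-voom these were Tuba8 (0.13) and Tubb2a (0.13) on refeeding of LKO and Tubb6 in the interaction (0.082). Leaving out a library moved Tuba1c from −0.0038 to 0.20 and Tubb6 from −0.23 to 0.25 in the fast, Tubb6 from −0.021 to 0.14 after refeeding, Tuba1a from −0.52 to 0.16 on refeeding of control, Tuba8 from −0.23 to 0.46 and Tubb2a from −0.25 to 0.28 on refeeding of LKO, and Tubb4b from −0.18 to 0.014 and Tubb6 from −0.19 to 0.29 in the interaction. The cause was not tested. The low counts of Tubb2b (523 in all) and Tuba8 (547) limit what their comparisons can show.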

Other observations

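Between genotypes, 1 of 7 lymphocyte markers tested was called in each feeding state. So were 1 of 6 red cell markers in the fast and 1 of 8 endothelial markers after refeeding. Over all genes, 12.2% were called between genotypes in the fast and 3.63% after refeeding. Jchain, an immunoglobulin-associated chain of plasma cells, was the single lymphocyte marker called, with a log2 difference of 3.35 in the fast (SE 0.45, edgeR adjusted p = 3.32e-04) and of 3.86 after refeeding (SE 0.45, edgeR adjusted p = 2.31e-04), both higher in LKO. Alas2, an enzyme of heme synthesis in red cells, fell in fasted LKO (−1.04, SE 0.15, edgeR adjusted p = 4.99e-04). Of 9 macrophage markers 0 were called by edgeR in any comparison, with 4 at an unadjusted p under 0.05 in the refed genotype comparison and 0 in the others. In that refed comparison 1 of the 9 had a fold change above 0, with a median log2 fold change of −0.57. Clec4g was the single endothelial marker called, higher in LKO after refeeding (0.44, SE 0.11, edgeR adjusted p = 0.0388). The 1 neutrophil marker tested was not called.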
